A study of Mus musculus with 9 samples.

Results

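Ighm, the gene of the immunoglobulin µ heavy chain constant region, was followed together with 9 other genes that E2A is known to regulate in the B lineage, namely Ebf1, Pax5, Cd79a, Cd79b, Igll1, Vpreb1, Rag1, Rag2 and Foxo1. These 10 genes were picked by symbol out of the 47729 genes of the deposited table of FPKM (fragments per kilobase of transcript, scaled to the mapped fragments of the library), and all 10 were found there. They were chosen with results of these libraries known. Their levels are therefore given as a description, with no test. The samples were mouse embryonic stem cells (ESCs) of a doxycycline (dox)-inducible line overexpressing a forced homodimer of E2A. In it a FLAG-tagged E47 sequence is joined to another E47 sequence by a flexible linker, and the transgene sits near the HPRT gene and is switched on by dox. All cells were kept in LIF/serum and all carried the transgene. They were untreated (0 h) or given dox at 1 µg/ml for 18 h or 24 h, with 3 replicates at each time point and 9 libraries in all. The untreated cells are thus the only control, and an effect of dox itself cannot be told apart from an effect of the homodimer.

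E2A, the product of Tcf3, is a basic helix-loop-helix factor that binds E boxes, short DNA sites of the form CANNTG. In B cell precursors it acts as a homodimer and drives expression of Ebf1 and, with the EBF1 protein, of Pax5 and Foxo1. It also acts on the surrogate light chain genes Igll1 and Vpreb1, on the recombinase genes Rag1 and Rag2 and on Cd79a, whose product carries the signal of the B cell receptor together with that of Cd79b. The heavy chain locus holds a well-known enhancer with several E boxes between its J segments and Ighm, and its constant exons can be transcribed from the unrearranged locus before any V segment has been joined.

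Ighm is the member on which the results turn, and the stretches below show what its value covers. Ighm lies on the minus strand at chr12:113418558-113422730 (GRCm38, the build of the files; GENCODE M21), with 6 exon blocks and 1886 exonic nt. It has 2 annotated transcripts, Ighm-201 of 4 exons and 1493 nt, which ends in the tail of secreted IgM, and Ighm-202 of 6 exons and 1698 nt, which ends in the membrane exons. The deposited values are per gene, so that both kinds of transcript enter 1 value and cannot be told apart. The first stretch is shared by both transcripts (chr12:113422671-113422730), the second is coding sequence held by Ighm-201 alone (chr12:113420870-113420928) and the third is the fifth exon, held by Ighm-202 alone (chr12:113418953-113419068), all printed 5′ to 3′ on the minus strand.
Start of the constant exons: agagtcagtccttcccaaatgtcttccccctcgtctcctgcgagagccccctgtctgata
Secreted tail: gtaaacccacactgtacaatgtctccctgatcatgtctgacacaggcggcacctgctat
Membrane exon: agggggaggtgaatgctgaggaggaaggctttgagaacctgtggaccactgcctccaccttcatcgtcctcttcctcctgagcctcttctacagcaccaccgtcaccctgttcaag

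Promoter windows of RefSeq (GRCm38.p6; 250 bases before to 50 after the annotated start, 300 in all) were matched to 8 of the 10 members, in 9 windows; Ighm and Cd79b had no entry. On both strands, the E box CAGCTG or CAGGTG (read on the other strand as CACCTG) was found in the windows of 4 members, Rag1, Igll1, Cd79a and Vpreb1, and in 32.9% of all 32851 windows. The general form CANNTG, which takes in both of these, was present for all 8 members and in 72.3% of all windows. These stretches are shown because they hold the named E boxes of the 4 members. Capitals mark CAGCTG or CAGGTG, positions count from the annotated start as 0, and each stretch lies before the start. Rag1 (chr2:101649628-101649694, minus strand) has a CAGGTG at position -135 and a CAGCTG at -128. Igll1 (chr16:16864111-16864170, minus strand) has a CAGCTG at -158 and a further CACCTG at -8, outside the printed stretch. Cd79a (chr7:24897316-24897375, plus strand) has a CAGGTG at -154 and Vpreb1 (chr16:16869311-16869370, minus strand) one at -88.
Rag1: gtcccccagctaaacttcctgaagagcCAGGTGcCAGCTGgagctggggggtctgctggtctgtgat
Igll1: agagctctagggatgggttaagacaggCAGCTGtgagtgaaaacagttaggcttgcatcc
Cd79a: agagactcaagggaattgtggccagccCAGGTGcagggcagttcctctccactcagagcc
Vpreb1: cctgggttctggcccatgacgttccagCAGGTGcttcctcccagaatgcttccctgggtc
Vpreb2, the near copy of Vpreb1, carries nearly the same stretch farther from its own start (chr16:17980315-17980365, plus strand), and the last 50 bases printed for the pair differ at 1 base.
Vpreb2: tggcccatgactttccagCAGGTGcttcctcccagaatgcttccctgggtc
Foxo1 had no CAGCTG or CAGGTG, but its window holds the EBF-type palindrome (TCCC and, after any 2 bases, GGGA, the same on both strands), found in 0.904% of all windows, at position -92 (chr3:52268220-52268279, plus strand, in capitals).
Foxo1: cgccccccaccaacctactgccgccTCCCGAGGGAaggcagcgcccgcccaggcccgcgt
The forkhead motif TGTTTAC, present in 3.65% of all windows, was in none of the 9 windows. These matches describe letters in short windows only; binding was not measured in these libraries.

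The libraries held between 22028363 and 26471569 reads on the genes of the filtered count-based table, and replicates differed from each other by more than counting noise. The ESC label was checked on Pou5f1, at 226 to 433 FPKM, and Nanog, at 34.5 to 78.8 FPKM over the 9 libraries. Tcf3 itself was at 37.7 to 41.2 FPKM at 0 h, 107 to 116 FPKM at 18 h and 93.6 to 108 FPKM at 24 h, and reads of the transgene and of the endogenous gene cannot be told apart in it. The 3 libraries of a time point did not overlap with those at 0 h for this gene.

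Ighm was near the detection limit at 0 h and higher in every library given dox. At 0 h it was at 0.0445, 0.0884 and 0.0732 FPKM in replicates 1, 2 and 3, which corresponds to 2, 4 and 3 reads. At 18 h the same replicates were at 1.81, 0.723 and 0.811 FPKM (78, 34 and 37 reads), and at 24 h at 2.57, 1.14 and 1.36 FPKM (123, 55 and 70 reads). Every library at 18 h and 24 h lay above every library at 0 h, and replicate 1 was the highest at both times in dox. The mean was 0.0687 ± 0.0223 FPKM without dox, 1.11 ± 0.603 after 18 h and 1.69 ± 0.767 after 24 h (SD, n = 3).

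On the log2(FPKM + 0.1) scale the difference in Ighm came to 2.75 at 18 h and 3.34 at 24 h, a scale that understates the change of a gene this low at 0 h. By the summed reads set against library size, Ighm was 16-fold higher at 18 h (95% counting interval 8.21 to 35.7, from 149 and 9 reads) and 24.4-fold higher at 24 h (12.7 to 54.0, from 248 and 9 reads). These intervals are exact, cover counting error only and leave out the spread between replicates, and reads were not counted by molecular identifier. Between libraries of the same number the ratio by reads at 18 h was 40.6 in replicate 1 (counting interval 10.9 to 341.1, on 2 reads at 0 h), 8.19 in replicate 2 (2.92 to 31.8) and 11.1 in replicate 3 (3.51 to 56.2). At 24 h these ratios were 57.3 (15.5 to 478.6), 13 (4.79 to 49.3) and 18.5 (6.06 to 91.6). Summed over replicates 2 and 3 alone, a choice made after seeing the data, Ighm was 9.45-fold higher at 18 h (4.36 to 24.4) and 15.4-fold higher at 24 h (7.27 to 39.2). Without the high replicate 1 at 18 h the log2 difference was 2.37, and without replicate 1 at 24 h it was 3.01. Ranked by log2 fold change among the 17951 genes tested, Ighm was number 23 at 18 h and number 11 at 24 h. It was chosen with results known and reached the mean of 0.1 FPKM needed for testing only through its libraries in dox. The rank is therefore a description and no support for a change.

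From 18 h to 24 h Ighm was higher in all 3 libraries when paired by number, by 1.42-, 1.58- and 1.68-fold. The log2 difference was 0.59 and ran from 0.26 without replicate 1 at 24 h to 0.97 without replicate 1 at 18 h. The 2 groups overlapped, since replicate 1 at 18 h lay above replicates 2 and 3 at 24 h. The level at 24 h was low on an absolute scale, at 1.69 FPKM against 4.71 FPKM for Foxo1 in the same libraries.

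**Figure D1:**
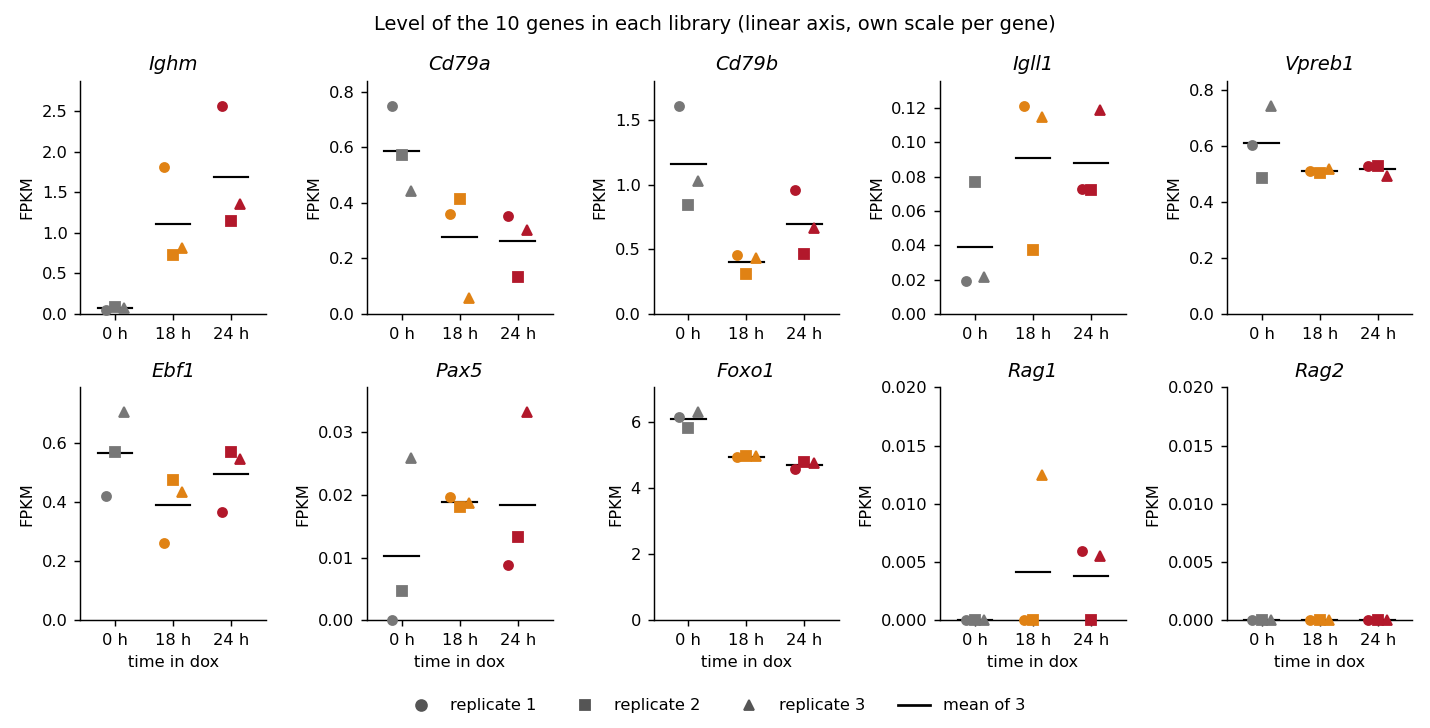
Level in FPKM (linear axis starting at 0, own scale for each gene) of the 10 genes in the 3 libraries at each time in dox; symbols give the replicate and bars the mean of 3. Ighm is the gene whose libraries at 18 h and 24 h all lie above those at 0 h, Cd79a and Foxo1 lie below their 0 h libraries at both times, and Rag2 is at 0 throughout.

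Reads elsewhere in the heavy chain locus were few. Ighd, the δ constant gene and the next gene downstream of Ighm, had no read in any library at 0 h and at most 1 read in any library in dox. Ighj1, Ighj2 and Ighj3 had no read in any library and Ighj4 had 1 read in 1 library at 18 h. Ighm was thus the sole gene of this J and constant stretch with 30 or more reads in a library, and the J segments next to it were at or near 0.

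The remaining constant genes of the locus gave a few more reads in dox than without it. Ighg1, the γ1 constant gene, had 0, 1 and 2 reads at 0 h, 4, 4 and 3 reads at 18 h and 7, 3 and 11 reads at 24 h. Igha, the α constant gene, had 0 reads in the 3 libraries at 0 h, 1, 2 and 7 reads at 18 h and 3, 4 and 1 reads at 24 h. Summed over the 6 constant genes besides Ighm whose reads could be recovered as whole numbers, there were 3 reads at 0 h, 25 at 18 h and 34 at 24 h, against 9, 149 and 248 for Ighm. The 209 annotated V, D and J genes and pseudogenes of the heavy chain locus together gave 8, 17 and 9 reads, and 199 of them were at 0 in every library.

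The light chain loci gave few reads, with no more in dox than without it for κ. Over the 166 genes of the κ locus there were 4 to 11 reads in a library, and the summed reads were 24 at 0 h, 13 at 18 h and 23 at 24 h, and over the 12 genes of the λ locus 0, 2 and 0. Igkc, the κ constant gene, had at most 1 read in any library. Of the 26 further immunoglobulin genes listed beside Ighm, only Igkj4 passed the filter on low values (a mean of at least 0.1 FPKM); it is 1 of the short J segments and did so on 3 reads in all, so that its log2 value of -1.20 at 24 h rests on 1 read at 0 h and none at 24 h.

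**Figure D2:**
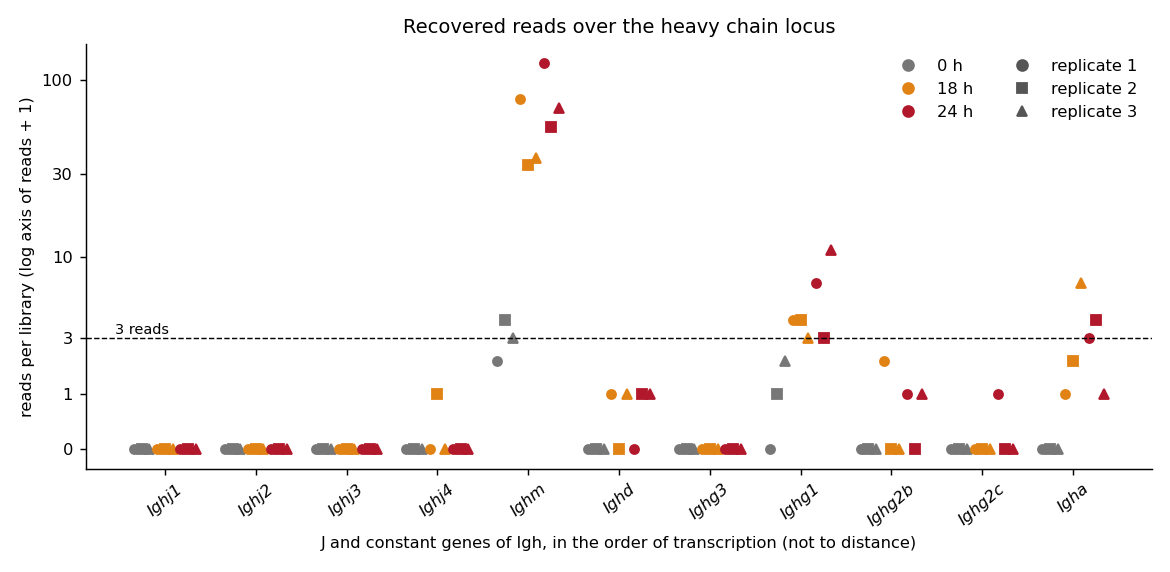
Recovered reads per library (log axis of reads + 1) for the J and constant genes of the heavy chain locus, placed in the order of transcription and not to distance; colours give the time in dox, symbols the replicate, and the dashed line marks 3 reads. Ighm has 34 to 123 reads in the 6 libraries in dox and 2 to 4 at 0 h, while Ighd does not pass 1 read.

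The genes whose pattern over the 9 libraries was most like that of Ighm were named by Pearson's r of log2(FPKM + 0.1) among 11893 genes with a mean of at least 1 FPKM. They were Irf1 (r = 0.990), an interferon-regulated transcription factor gene, and Gal3st3 (0.988), encoding a galactose sulfotransferase. Next came Lrig1 (0.983), encoding a transmembrane antagonist of growth factor receptors, Rab11fip4 (0.982), encoding a Rab11 effector, and Irx4 (0.981), a homeobox gene. The 9 libraries share their 3 time points, so this likeness is a description of levels and carries no p. Irf1 had 22.8 ± 1.16 FPKM without dox, 44.8 ± 5.0 after 18 h and 51.5 ± 3.24 after 24 h (SD, n = 3), a difference of 1.17 on the log2 scale at 24 h against 3.34 for Ighm. As for Ighm, replicate 1 was the highest of the 3 libraries of Irf1 at both times in dox.

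**Figure D3:**
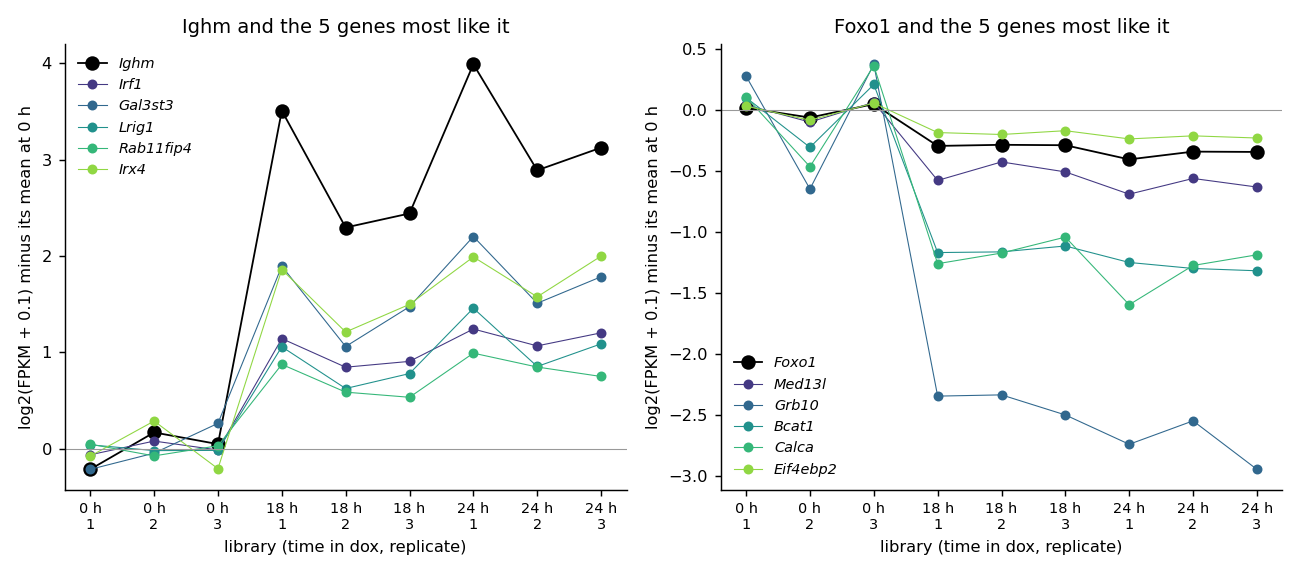
log2(FPKM + 0.1) in each library minus the gene's mean at 0 h, for Ighm (left) and Foxo1 (right) in black and the 5 genes most like each in colour; lines only join the points of a gene, as replicates have no order. Ighm has the highest points on its panel, with a mean of 3.34 at 24 h, and Foxo1 lies a little below 0, with a mean of -0.36.

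The genes of the B cell receptor's signalling chains, Cd79a and Cd79b, were low in ESCs and lower in dox. Cd79a (chr7:24897381-24902197, plus strand), which encodes Igα, was at 0.748, 0.572 and 0.442 FPKM at 0 h. After 18 h its libraries had 0.360, 0.413 and 0.0567 FPKM, and after 24 h 0.351, 0.134 and 0.302. All 6 libraries in dox lay below the 3 libraries at 0 h, and replicate 3 at 18 h was the lowest, on 2 reads. The log2 fold change of Cd79a was -1.02 at 18 h and -0.95 at 24 h, and without that replicate the value at 18 h was -0.48. By reads it was at 0.467 of its 0 h level at 18 h (95% counting interval 0.289 to 0.739, from 29 and 60 reads) and at 0.443 at 24 h (0.276 to 0.698, from 30 and 60 reads).

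Cd79b (chr11:106311341-106314762, minus strand), which encodes Igβ, was at 1.61, 0.844 and 1.03 FPKM at 0 h and at 0.458, 0.308 and 0.433 FPKM at 18 h, with no overlap between the groups. At 24 h it was at 0.963, 0.466 and 0.667 FPKM, where replicate 1 lay above replicate 2 at 0 h, while each replicate lay below its own number at 0 h. On the log2 scale Cd79b was at -1.30 against 0 h after 18 h, on 41 reads against 116, and at -0.66 after 24 h, on 78 reads against 116 (ratio by reads 0.596, counting interval 0.441 to 0.801). The latter was -0.42 without replicate 1 at 0 h and -0.44 without replicate 2 at 24 h. The libraries at 24 h all lay above those at 18 h, by 0.64 on the log2 scale, or 0.41 without replicate 1 at 24 h. The libraries of Cd79b at 18 h therefore lay below those of both other time points.

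The surrogate light chain is made of the products of Igll1 (λ5) and Vpreb1, which pair with the µ chain in pre-B cells. Igll1 (chr16:16860671-16863985, minus strand) did not pass the filter on low values. It was at 0.0194, 0.0770 and 0.0213 FPKM at 0 h (1, 4 and 1 reads). In dox it was at 0.121, 0.0371 and 0.115 at 18 h (6, 2 and 6 reads) and at 0.0727, 0.0724 and 0.119 at 24 h (4, 4 and 7 reads). The groups overlapped at both times, and the ratio by reads was 2.22 at 24 h with a counting interval of 0.812 to 6.97, so that a change was not detectable at this depth.

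Vpreb1 (chr16:16868403-16870843, minus strand) was at 0.603, 0.487 and 0.744 FPKM at 0 h, at 0.511, 0.505 and 0.520 at 18 h and at 0.530, 0.528 and 0.495 at 24 h, with 13 to 18 reads in each library. Its log2 fold changes were -0.20 and -0.19, and the libraries in dox lay between the lowest and the highest library at 0 h. They were -0.07 and -0.06 without replicate 3 at 0 h, and -0.33 and -0.32 without replicate 2 at 0 h. The ratio by reads at 24 h was 0.849, with a counting interval of 0.551 to 1.31. Vpreb1 lies within Top3b, a topoisomerase gene on the opposite strand at 11.5 to 13.4 FPKM in the means of the time points, and it has the near copy Vpreb2, which was listed at 0 in all libraries. The library kit keeps strand, but how strand and reads with several matches were handled in counting is not given in the sources used here, so its value is uncertain.

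Ebf1 (chr11:44617317-45008091, plus strand), encoding the factor that sets up the B cell programme together with E2A, was at 0.421, 0.568 and 0.702 FPKM at 0 h, on 98 to 149 reads a library. At 18 h Ebf1 was at 0.260, 0.473 and 0.432 FPKM and at 24 h at 0.367, 0.570 and 0.546 FPKM. The groups overlapped, with replicate 1 the lowest at each time point. Its log2 fold change was -0.45 at 18 h and -0.16 at 24 h. The value at 18 h was -0.24 without replicate 1 at 18 h, and that at 24 h ran from -0.32 without replicate 1 at 0 h to 0.01 without replicate 1 at 24 h. Within each replicate number Ebf1 was lower at 18 h than at 0 h. The ratio by reads was 0.699 at 18 h (counting interval 0.597 to 0.819) and 0.882 at 24 h (0.763 to 1.02), intervals that leave out the spread between replicates. Ebf1 had more reads than Ighm at 0 h.

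Ebf2, a paralog of Ebf1 known from neurons and brown fat, was higher in dox. It was at 0, 0.0241 and 0 FPKM at 0 h (0, 4 and 0 reads). It was at 0.246, 0.145 and 0.191 FPKM after 18 h (39, 25 and 32 reads) and at 0.443, 0.266 and 0.196 after 24 h (78, 47 and 37 reads). Its log2 fold changes were 1.44 at 18 h (SE 0.308, adjusted p = 0.0247) and 1.86 at 24 h (SE 0.308, adjusted p = 0.00770; limma with Benjamini-Hochberg adjustment over all genes), and all 6 libraries in dox lay above those at 0 h. Ebf2 passed the filter on low values only through its libraries in dox, so that it had to differ to be tested. The call at 18 h was lost without any 1 of replicates 1 and 3 at 0 h or replicates 1, 2 and 3 at 18 h (adjusted p 0.0582 to 0.0813), and the call at 24 h held in all 9 such fits. Ebf3 (0.109, 0.133 and 0.0458 FPKM at 0 h and 0.345, 0.226 and 0.146 at 24 h) differed by 0.78 on the log2 scale at 24 h (limma, adjusted p = 0.159), and it too passed the filter only through its libraries in dox. Ebf4, at 0.509 ± 0.140 FPKM at 0 h and 0.425 ± 0.169 at 24 h (SD, n = 3), had log2 values of -0.35 at 18 h and -0.24 at 24 h with overlapping groups (limma, adjusted p = 0.515 and 0.642). Whether Ebf1 and Ebf2 differ in response was not tested.

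Pax5 (chr4:44524757-44710487, minus strand), which holds B cells to their lineage, did not pass the filter. It was at 0, 0.00471 and 0.0260 FPKM at 0 h (0, 1 and 5 reads). In dox it was at 0.0198, 0.0181 and 0.0187 at 18 h (4 reads in each) and at 0.00889, 0.0133 and 0.0332 at 24 h (2, 3 and 8 reads). The groups overlapped, and the counting interval of the ratio at 24 h ran from 0.681 to 6.16. Pax2 (16 reads summed at 0 h, 19 at 18 h and 28 at 24 h) and Pax8 (30, 12 and 7 reads), the paralogs of Pax5, were also below the filter. Pax8, named after its values were seen, had lower levels in all libraries in dox.

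Foxo1 (chr3:52268336-52353221, plus strand), encoding a forkhead factor that acts on Rag1 and Rag2 in B cell precursors, was the best expressed member and the one with the smallest spread relative to its mean. It was at 6.16, 5.82 and 6.30 FPKM at 0 h, at 4.94, 4.97 and 4.96 at 18 h and at 4.57, 4.78 and 4.77 at 24 h, on 979 to 1273 reads a library. Every library in dox lay below every library at 0 h, and the libraries at 24 h lay below those at 18 h. The mean of Foxo1 differed from that at 0 h by -18.6% after 18 h and -22.7% after 24 h, with log2 values of -0.29 and -0.36.

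Of the other FOXO genes, Foxo3 was at 8.68 ± 1.17 FPKM at 0 h and 7.68 ± 0.530 at 24 h, and Foxo4 at 21.2 ± 2.01 and 20.4 ± 0.250 (SD, n = 3). Their log2 fold changes at 24 h were -0.17 (adjusted p = 0.387) and -0.05 (adjusted p = 0.673) by limma. Foxo6, the lowest of the family, was at 0.263 ± 0.0504 and 0.421 ± 0.106 FPKM (SD, n = 3), with log2 values of 0.37 at 18 h, where the groups did not overlap, and 0.51 at 24 h, where they did (adjusted p = 0.338 and 0.175 by limma). The order of the better expressed genes was Foxo4, Foxo3 and Foxo1 at each time point, with no overlap between the genes. The genes most like Foxo1 were Med13l (r = 0.991), Grb10 (0.987), Bcat1 (0.985), Calca (0.982) and Eif4ebp2 (0.979). They encode a Mediator subunit, a growth factor receptor adaptor, an amino acid transaminase, a calcitonin peptide and a translation repressor. All 5 were lower in dox, with log2 values of -0.63 for Med13l, -2.75 for Grb10, -1.29 for Bcat1, -1.35 for Calca and -0.23 for Eif4ebp2 at 24 h.

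**Figure D4:**
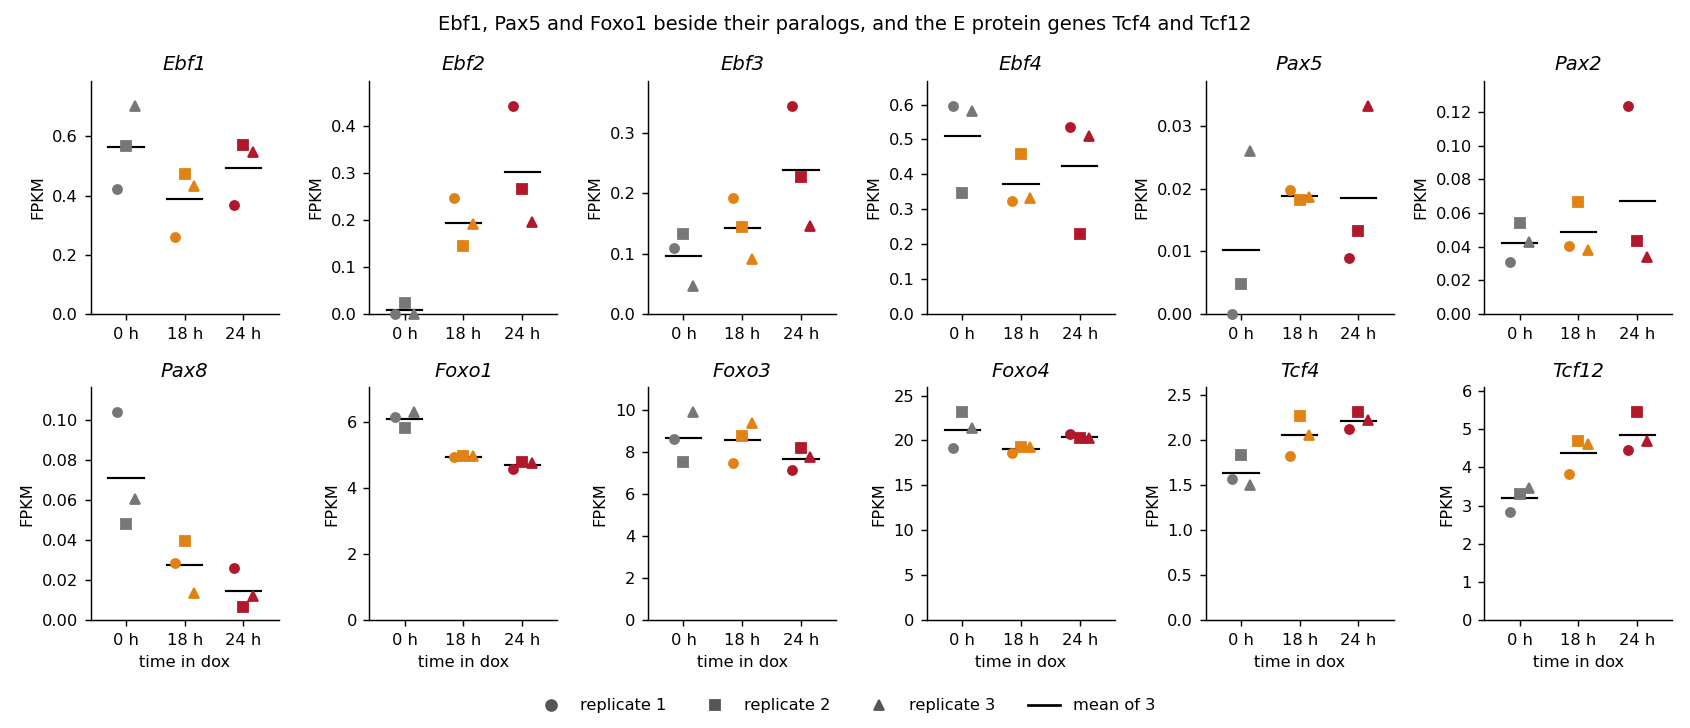
Level in FPKM (linear axis starting at 0, own scale for each gene) of Ebf1, Pax5 and Foxo1 beside their paralogs, and of the E protein genes Tcf4 and Tcf12, in the 3 libraries at each time in dox; symbols give the replicate and bars the mean of 3. Ebf2 goes from 0.00802 to 0.302 FPKM in the mean at 24 h while Ebf1 stays between 0.260 and 0.702 FPKM.

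Tcf12 (HEB) and Tcf4 (E2-2), the other E protein genes, were expressed throughout. Tcf12 was at 3.20 ± 0.330 FPKM at 0 h and 4.86 ± 0.516 at 24 h (SD, n = 3), higher by 0.59 on the log2 scale (limma, adjusted p = 0.0175), below the required size of 1. Tcf4 was at 1.64 ± 0.173 and 2.22 ± 0.0913 FPKM, higher by 0.42 (limma, adjusted p = 0.0553, or 0.0142 with the replicate number as a block).

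Rag1 and Rag2, whose products cut DNA in V(D)J joining, were undetected at this depth. Rag2 (chr2:101624718-101632529, plus strand) had no read in any of the 9 libraries, which allows a level of up to 0.0321 to 0.0405 FPKM in a library (3 reads). Rag1 (chr2:101638282-101649501, minus strand) had no read at 0 h, 0, 0 and 2 reads at 18 h and 1, 0 and 1 reads at 24 h, all below 3 reads, so neither a rise nor its absence could be seen. Both genes overlap B230118H07Rik, a gene at 3.63 to 3.92 FPKM in the means of the time points. The 17 further genes listed for V(D)J joining, among them the end-joining genes Xrcc5 and Prkdc, all had a mean of at least 1 FPKM. None of the 17 passed both thresholds at 18 h or 24 h by limma, edgeR or DESeq2. At an unadjusted p below 0.05 by limma there were 4 at 18 h, where 25.4% of all genes were, and 7 at 24 h, where 28.2% were.

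Among the 10 members, 6 passed the filter on low values (Ighm, Ebf1, Cd79a, Cd79b, Vpreb1 and Foxo1), Ighm only through its libraries in dox. Of these 6, 1 (Ighm) was higher without overlap between the groups at 18 h, where 14.4% of all genes tested were, and 3 (Cd79a, Cd79b and Foxo1) were lower without overlap, where 13.7% were. At 24 h the counts were 1 (Ighm; background 16.7%) and 2 (Cd79a and Foxo1; background 14.6%). A log2 fold change of at least 1 was reached by Ighm alone at both times (background 2.79% at 18 h and 3.51% at 24 h), and one of -1 or lower by Cd79a and Cd79b at 18 h (background 2.43%) and by none at 24 h (background 2.31%). The median log2 fold change of the 6 was -0.37 at 18 h and -0.28 at 24 h, against -0.0030 and 0.0040 for all genes. From 18 h to 24 h, 1 of the 6 was higher without overlap (Cd79b; background 6.81%) and 1 was lower (Foxo1; background 6.04%).

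The wider lists of genes were read from the fit over all genes, with limma calls that need both an adjusted p no larger than 0.05 and a log2 difference of 1 or more in either direction. That fit called 239 genes up and 130 down at 18 h (2.06% of 17951; 199 down with the replicate block) and 371 up and 150 down at 24 h (2.9%; 319 up and 221 down after median centring). Of the 37 further B-lineage genes, 20 were tested, and 1 was called up at 18 h, and 1 up and 1 down at 24 h. The median log2 fold change of the list was -0.23 at 18 h and -0.06 at 24 h. With a pseudocount of 1 FPKM in place of 0.1, none of the genes called up in any list reached the size threshold at 18 h or 24 h, nor did Bcl11a (-0.39) at 24 h or Fgf4 (-0.96) at 18 h among those called down.

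Cxcr4, the chemokine receptor gene that holds B cell precursors in bone marrow and is also used by many other cells, was the B-lineage gene called up at both times. It was at 0.301, 0.576 and 0.458 FPKM without dox. After 18 h it was at 1.48, 1.66 and 1.33 FPKM and after 24 h at 1.39, 1.69 and 2.09, with no overlap with 0 h. Its log2 fold changes were 1.57 (SE 0.222, adjusted p = 0.00507) and 1.76 (SE 0.222, adjusted p = 0.00227 by limma). Bcl11a, a zinc finger gene needed for early B cells and active in neural cells, fell from 0.490 ± 0.116 FPKM at 0 h to 0.138 ± 0.0452 at 24 h (SD, n = 3; log2 fold change -1.31, SE 0.247, adjusted p = 0.0123 by limma).

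Of the better expressed B-lineage genes (mean of at least 1 FPKM), Lef1, a Wnt effector gene, was at 2.68 ± 0.126 FPKM without dox, 4.70 ± 0.428 after 18 h and 3.65 ± 0.285 after 24 h (SD, n = 3). Its libraries in dox all lay above those at 0 h, and its log2 differences of 0.78 at 18 h and 0.43 at 24 h passed the p threshold (adjusted p = 0.00331 and 0.0276 by limma) and not the size threshold. Cd24a, a surface marker shared by ESCs and B cell precursors, was at 84.4 ± 5.09, 65.2 ± 2.12 and 70.2 ± 2.28 FPKM, with log2 values of -0.37 and -0.26 that likewise passed the p threshold (adjusted p = 0.00733 and 0.0220 by limma) and not the size threshold. Bach2, Lyn, Cd38 and Pik3cd lay between 1.14 and 2.21 FPKM in the means at 0 h, and at 24 h had log2 values of 0.55, 0.09, 0.03 and -0.12 with adjusted p of 0.0764, 0.831, 0.924 and 0.610 by limma. With the replicate block the adjusted p of Bach2 was 0.0163. Several defining B-cell genes were undetected, as Ms4a1, Pou2af1, Il7r, Vpreb2 and Fcer2a were at 0 in every library.

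**Figure D5:**
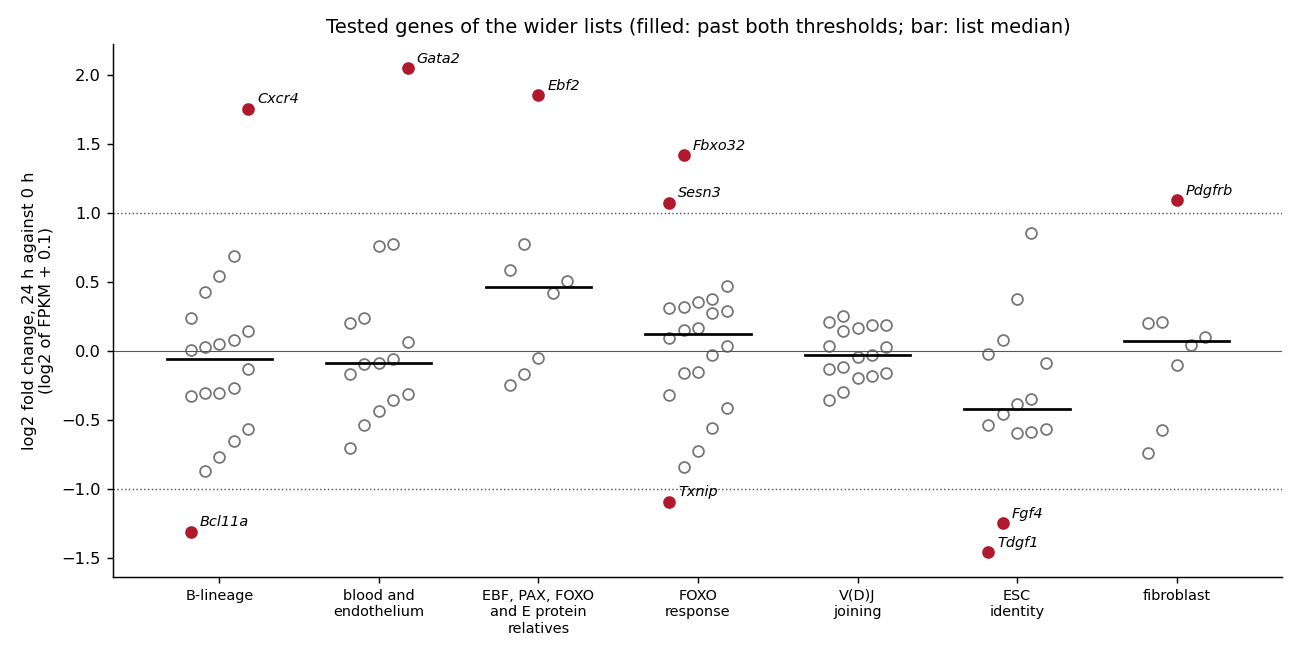
log2 fold change at 24 h against 0 h (log2 of FPKM + 0.1) for each tested gene of the wider lists other than the T-lineage and immunoglobulin lists; filled points passed both thresholds by limma, open points did not, bars are list medians and dotted lines mark -1 and 1. Cxcr4 and Bcl11a are the 2 filled points of the B-lineage list, and no point of the V(D)J joining list is filled.

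Of the 25 genes that FOXO factors are known to regulate, 22 were tested. Fbxo32, a muscle ubiquitin ligase gene, was called up at 18 h and 24 h (log2 fold changes 1.16 and 1.42, SE 0.119, adjusted p = 0.00124 and 3.36e-04 by limma), from 0.725, 0.853 and 0.690 FPKM at 0 h to 2.20, 2.07 and 2.28 at 24 h. Sesn3, a sestrin gene, was called up at 24 h (1.08, SE 0.135, adjusted p = 0.00219 by limma). Txnip, which encodes a thioredoxin-binding protein, was called down at 24 h (-1.09, SE 0.151, adjusted p = 0.00342 by limma) but was at -0.88, short of the size threshold, without replicate 3 at 0 h. Thus 2 genes were up and 1 was down at 24 h, where 2.9% of all genes were called in either direction. The median of the list was 0.13. Foxo1 itself was lower, and a link between its level and these genes was not tested.

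Lists of other cell types were read in the same way. Of 28 T-lineage genes 14 were tested. Limma called 1 of them up at 18 h, where 2.06% of all genes were called in either direction, and 2 up at 24 h, where 2.9% were. Cd4, a T-cell coreceptor gene, was among those at 24 h (log2 fold change 1.18, SE 0.313, adjusted p = 0.0426 by limma). In the list 7 genes had a mean of at least 1 FPKM over all libraries, while Trac and Trdc were at 0 throughout. With the replicate block Cd2 was called up as well at 24 h (1.15, adjusted p = 0.0416, against 0.219 without it). Cd4 and Cd2, at means of 0.0536 and 0.0881 FPKM at 0 h, also passed the filter on low values only through their libraries in dox. Cd4 lost its call in 8 of the 9 fits that leave out 1 library, the exception being replicate 2 at 24 h (0.0536 to 0.140).

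Of 26 blood and endothelial genes 15 were tested, and Gata2, a transcription factor gene of blood progenitors that is also used in neurons, was called up at both times. It had 0.105 ± 0.0409 FPKM without dox, 0.591 ± 0.0416 after 18 h and 0.740 ± 0.0643 after 24 h (SD, n = 3; log2 fold changes 1.77 and 2.05, SE 0.211, adjusted p = 0.00234 and 9.42e-04 by limma). Of the 26 genes, 6 had a mean of at least 1 FPKM over all libraries. The β-globin genes Hbb-bt and Hbb-bs were at 0 in every library and Ptprc, the pan-leukocyte gene, had 1 to 14 reads. The summed level of the whole B-lineage list was 93.7 to 105 FPKM at 0 h, 79.7 to 84.6 at 18 h and 85.2 to 88.0 at 24 h, most of it Cd24a. That of the blood and endothelial list was 22.0 to 27.9, 21.5 to 28.4 and 21.0 to 26.0 FPKM.

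Of 14 ESC identity genes, all tested, Tdgf1 (log2 fold changes -1.27 and -1.46, SE 0.101, adjusted p = 2.95e-04 and 1.15e-04 by limma) and Fgf4 (-1.04 and -1.25, SE 0.255, adjusted p = 0.0405 and 0.0170 by limma) were called down at both times. Nanog, in the same list, was at 40.6 ± 5.51 FPKM at 0 h and 73.4 ± 8.12 at 24 h (SD, n = 3), and its log2 difference of 0.86 (adjusted p = 0.00735 by limma) passed the p threshold and not the size threshold. Pou5f1 had the same standing in the other direction, with 371 ± 53.3 FPKM at 0 h and 248 ± 33.4 at 24 h (SD, n = 3; log2 difference -0.58, adjusted p = 0.0220 by limma). The median of the list at 24 h was -0.42. Of 10 fibroblast genes 8 were tested and Pdgfrb was called up at 24 h (1.1, SE 0.230, adjusted p = 0.0185 by limma), from 0.960 ± 0.327 to 2.09 ± 0.209 FPKM. Fgf4 lost its call at 24 h without replicate 1 at 0 h, replicate 2 at 24 h or replicate 3 at 24 h (0.0542 to 0.0705) and at 18 h in 6 of the 9 such fits (0.0563 to 0.138). Pdgfrb lost it without replicate 1 at 0 h, where it was at 0.82, or without replicate 2 or 3 at 24 h (0.0736 and 0.0690). These fits took no account of the replicate number. With the replicate block and all 9 libraries, Fgf4 was called down at 18 h at an adjusted p of 4.12e-04 by limma. The block left 2 ESC identity genes called down at each time. Fewer cells of a type and less RNA per cell cannot be told apart in these bulk libraries, and the part of such changes in the levels of the members was not tested.

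No gene of any of the lists passed both thresholds between 18 h and 24 h by limma, edgeR or DESeq2, a comparison in which limma called 4 of all 17951 genes (0.0223%). At an unadjusted p below 0.05 by limma there were 1 B-lineage, 1 T-lineage, 1 blood and endothelial, 2 FOXO response and 1 ESC identity genes, where 5.59% of all genes were. Of the 25 genes that overlap a member or lie next to one on its chromosome, 9 were tested and none passed both thresholds at any time by limma. Rps19 and Arhgef1, the neighbours of Cd79a, were at 175 and 14.3 FPKM at 0 h and at log2 fold changes of -0.12 and 0.11 at 24 h, against -0.95 for Cd79a. Gm25747, the gene annotated before Ighm, was at 0 in every library, and 19 of the 25 had a mean below 1 FPKM at every time point.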

How the data were processed

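Total RNA was made into stranded mRNA libraries and sequenced by the study; per the labels and the study's methods, reads were trimmed with cutadapt 1.9, aligned to GRCm38 with STAR 2.5.2b and compared with edgeR 3.16.5. The counting tool, its handling of strand and of reads with several matches are not given in the sources used here. The authors deposited FPKM for 47729 genes and, for 19210 genes that passed their filter, a signal of CPM scaled by library; the log2 fold changes, p-values and mean CPM of groups deposited in that table are the authors' own comparisons and were not used. Groups were taken from the sample titles, since the treatment note in the labels names other hours.

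Here limma 3.58.1 (R 4.3.3, trend in eBayes) was run on log2(FPKM + 0.1) for 17951 genes with a mean of at least 0.1 FPKM, with all 9 libraries, time as the only term and Benjamini-Hochberg adjustment; calls needed both an adjusted p no larger than 0.05 and a log2 difference of 1 or more in size. Whole reads were recovered from the scaled signal (100% of values whole, to within 0.00292 reads). For genes outside that table they were computed from FPKM, library size and the exonic length in GENCODE M21, and were whole to within 0.05 reads for 92.0% of 8517 such genes; 3 reads was taken as the detection limit. edgeR 4.0.16 and DESeq2 1.42.0 were run on the recovered reads as alternatives. Ratios by reads have exact conditional binomial intervals at 95%, for counting error only. The members and the lists of genes were chosen with earlier results of these data known. Named beside the members are list genes past both thresholds (at most 8 a list), B-lineage, immunoglobulin and paralog genes with a mean of at least 1 FPKM, the 5 genes most like Ighm and Foxo1, and genes overlapping or next to a member. The fit was tested on simulated data. The 3 libraries of a group are given as biological replicates by the study. Libraries of the same number resembled each other across time points. Deviations from the group means over 11893 genes correlated at 0.211 to 0.548 in the 9 pairs of the same number and at -0.399 to 0.110 in the 18 others. Deviations within a group sum to 0, so the low values of the 18 follow in part from the high values of the 9. Alternatives were other pseudocounts, filters, scalings, a replicate block, fewer libraries, edgeR and DESeq2. Some genes of the lists are counted but not reported here by name.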

Additional observations from a re-analysis of the deposited data

How the results depend on the processing

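At 18 h 239 genes were called up and 130 down, at 24 h 371 up and 150 down, and from 18 h to 24 h 3 up and 1 down. In the same order they were 66 and 54, 84 and 67, and 0 and 0 with a pseudocount of 1 FPKM; 125 and 85, 166 and 99, and 0 and 0 with a mean of at least 1 FPKM; 49 and 18, and 66 and 20 with a log2 minimum of 2; and 383 and 200, 539 and 241, and 0 and 0 by edgeR. Only 75 genes were down at 18 h when just those libraries were fitted, against 199 with the replicate block, which moved no other count by over 1.5 times and added Cd2 as the one further list gene. From 18 h to 24 h there were 1 and 0 with a pseudocount of 0.01, 4 and 2 with the filter left off, and 0 and 2 by DESeq2; in the 3 settings with 0 and 0, limma had 1041 and 694 genes and edgeR 983 at an unadjusted p below 0.05. Leaving out 1 library gave 158 to 242 up and 65 to 176 down at 18 h, 240 to 354 up and 79 to 185 down at 24 h, and 0 to 6 up and 0 to 5 down between them. Of the distinct genes of the wider lists, 5 were up and 2 down at 18 h, and 8 up and 4 down at 24 h. With a pseudocount of 1 these were 0 and 1 at 18 h and 0 up at 24 h, with a mean of at least 1 FPKM 2 and 4 up, and with a log2 minimum of 2 they were 0 and 0, and 1 and 0. At 18 h 1 was down with no filter and 1 with just those libraries; by edgeR 5 were down at 18 h and 7 at 24 h, and by DESeq2 5 at 18 h. Leaving out 1 library gave 3 to 5 up and 1 to 3 down at 18 h, and 5 to 7 up and 3 to 4 down at 24 h.

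The log2 difference of Ighm ran from 0.95 with a pseudocount of 1 to 4.01 by DESeq2 at 18 h, and from 1.30 to 4.61 at 24 h. No tested member changed sign at 18 h or 24 h against 0 h, except Ebf1 at 24 h without replicate 1 at 24 h. Depth limits Rag1, Rag2, Pax5 and Igll1, with at most 8 reads in a library, and the level of Ighm at 0 h.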
